A study of Mus musculus with 12 samples.

Results

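Interferon-stimulated genes were followed in immature thymocytes that had lost 2 zinc finger transcription factors, Zfp148 and Zfp281. The set holds 40 genes named by symbol. All 40 were found among the 53656 gene rows of every count table, and all 40 were among the 13383 genes that passed the filter on low counts. They were grouped by known role into regulators, the ISG15 system, sensors of foreign nucleic acid, antiviral restriction factors, GTPases, immunoproteasome subunits, ubiquitin and ADP-ribose enzymes, Ly6 surface proteins and others.

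RNA from mouse thymocytes was sequenced in 12 libraries, 3 in each of 4 groups. All mice carried floxed alleles of both genes (Zfp148 fl/fl, Zfp281 fl/fl). In the double knockout (dKO) the recombinase Cre, driven by Cd4 regulatory sequence, deletes the floxed parts, whereas controls lacked Cre. An effect of Cre itself therefore cannot be told apart from the loss of the genes. Immature CD4 thymocytes (ImCD4) were sorted as CD44low, CD4+CD8-, H2-Kb- and CD69+. Immature CD8 thymocytes (ImCD8) were sorted as CD44low, CD8+CD4-, TCRb+ and CD69+, with no criterion on the MHC class I molecule H2-Kb, so lineage and gate cannot be told apart. Age, sex, strain background and the number of mice per library were not given in the sources used here. The titles and the genotype entries were opposite for all 6 ImCD8 libraries, and groups were taken from the titles.

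Interferons are secreted proteins that bind paired receptors on the cell surface. Receptor-bound Jak kinases phosphorylate Stat proteins, and Stat proteins joined to Irf9 bind the interferon-stimulated response element (ISRE), while Stat dimers bind the gamma-activated site (GAS). The genes that follow include antiviral effectors, components of antigen processing and negative regulators, and in the thymus interferon responses are known as part of the late maturation of single-positive cells.

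Upstream sequences were chosen to show these elements in members on which the results below turn, and the sequence of Igtp was added because it holds both. They are RefSeq sequences on GRCm38 (mm10), read 5′ to 3′ on the gene's strand and ending at the base before the annotated start. Capitals mark matches to the ISRE core, which is GAAA, any 2 bases and GAAA again, or to the GAS TTCNNNGAA, on either strand. Ifit3 lies on chromosome 19 from 34583531 to 34588731 (plus strand) in the GENCODE annotation, and its window was chr19:34583279-34583528. Ifit1 lies on the same chromosome and strand from 34640871 to 34650009, with the window chr19:34640769-34640888. Isg15 lies on chromosome 4 from 156199424 to 156200818 (minus strand), with the window chr4:156200819-156200938. Irf1 lies on chromosome 11 from 53770014 to 53778374 (plus strand), with the window chr11:53769894-53770013. Igtp lies on chromosome 11 from 58199556 to 58207591 (plus strand), with the window chr11:58199436-58199555.
Ifit3: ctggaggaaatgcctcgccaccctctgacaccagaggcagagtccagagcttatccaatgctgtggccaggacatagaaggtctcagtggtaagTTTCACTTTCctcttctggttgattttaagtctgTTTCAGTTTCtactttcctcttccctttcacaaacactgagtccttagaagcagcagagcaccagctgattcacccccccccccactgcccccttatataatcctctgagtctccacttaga
Ifit1: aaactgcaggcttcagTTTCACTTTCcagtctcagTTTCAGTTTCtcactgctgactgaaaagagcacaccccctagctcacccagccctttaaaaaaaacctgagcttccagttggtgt
Isg15: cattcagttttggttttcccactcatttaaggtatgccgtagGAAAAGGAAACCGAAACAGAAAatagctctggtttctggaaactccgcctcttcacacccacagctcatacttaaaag
Irf1: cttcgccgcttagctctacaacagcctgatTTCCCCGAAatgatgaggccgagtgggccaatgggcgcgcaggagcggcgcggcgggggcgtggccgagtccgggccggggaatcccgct
Igtp: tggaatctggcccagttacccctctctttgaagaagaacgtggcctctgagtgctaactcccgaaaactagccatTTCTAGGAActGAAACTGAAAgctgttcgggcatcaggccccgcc

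Ifit3 held 2 ISRE core matches, which ended 147 and 113 bases before the start, and Ifit1 held 2, which ended 95 and 76 bases before it. Isg15 held 3 overlapping matches between 78 and 57 bases before its start, all on the gene's own strand. Irf1 held no ISRE core match and 1 GAS match, 90 to 82 bases before its start. Igtp held a GAS match and an ISRE core match close together.

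Promoter windows from 250 bases before to 50 bases after the start were present for 30 of the 40 members. At least 1 ISRE core match was found in 14 of these 30 genes (46.7%), against 3.99% of the 27025 genes with a window. A GAS match was found in 11 of 30 (36.7%), against 9.55% of all genes. The sequence GGGGAGGGG, a G-rich run of the kind bound by Zfp148 and Zfp281, was found in 1 of 30 members, Ddx58 (3.33%), against 7.2% of all genes, and no binding was measured here. Each motif was searched on both strands, and the GAS pattern reads the same on both, so each place was counted once. A match describes the letters of the window and is not evidence of a site in use.

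**Figure D1:**
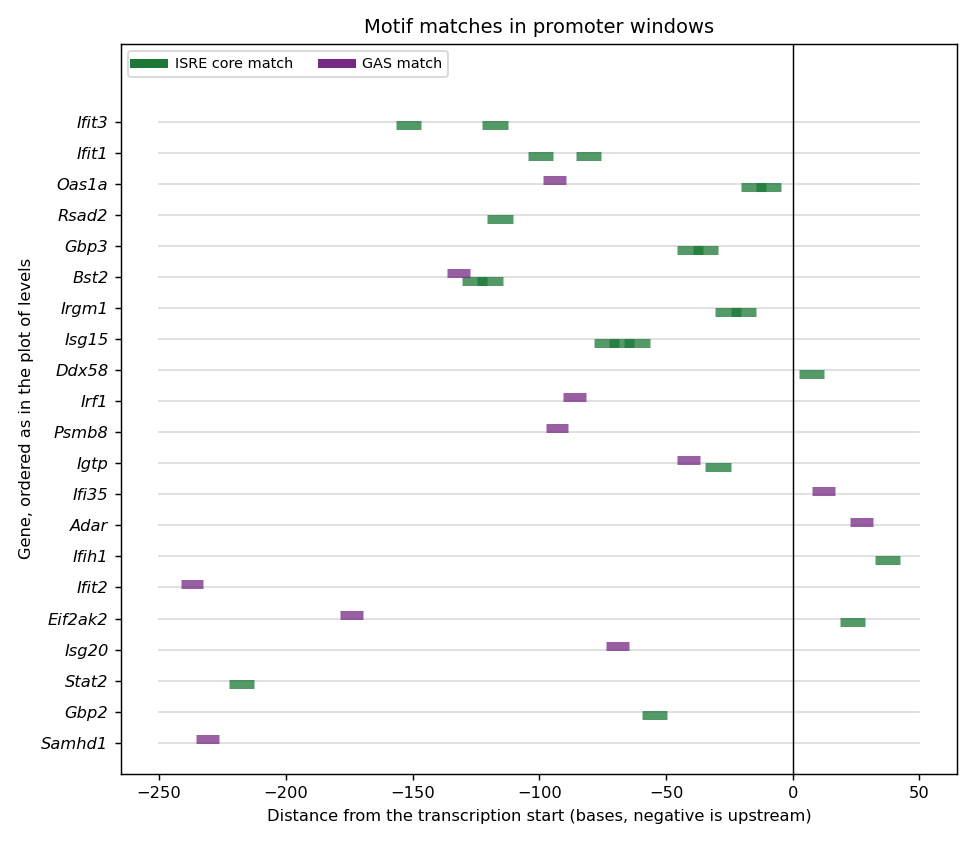
Positions of ISRE core (green) and GAS (purple) matches in the 21 members with at least 1 match, on an axis of distance in bases from the transcription start, with grey lines for the window searched. Most matches lie upstream of the start, and darker stretches are overlapping matches.

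Libraries held 7315833 to 10943143 gene counts and 18504 to 20305 detected genes. Levels below are counts divided by the scaled library size and scaled to a common total, the usual CPM, given in the order of replicates 1, 2 and 3, and differences are log2 fold changes with their standard error (SE). The floxed genes went with the titles: control libraries held Zfp281 at 440.9 to 562 CPM in ImCD4 and 112 to 128 CPM in ImCD8, and dKO libraries at 16.2 to 21.4 and 10.2 to 14.9 CPM. Zfp148 was likewise lower in every dKO library, at 63.0 to 68.9 CPM against 177 to 182 CPM in ImCD4 and at 45.6 to 62.8 CPM against 162 to 171 CPM in ImCD8. The counts cannot show whether fewer cells expressed a gene or each cell held less of its RNA. Replicate 3 of each group stood apart on the third principal component. The labels do not tie libraries to separate mice, so the p-values rest on library-to-library spread that could be technical.

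Identity genes of the 2 lineages followed the labels. Cd4 averaged 1115 CPM in control ImCD4 and 3.06 CPM in control ImCD8, and Cd8a averaged 53.4 and 1626 CPM. Zbtb7b, the CD4-lineage factor ThPOK, averaged 291 and 0.0728 CPM.

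Before any knockout effect is considered, the members differed widely in level. In control ImCD4 cells the mean level ran from 0.774 CPM for Mx1 to 404 CPM for Samhd1, with a median over members of 77.0 CPM. In control ImCD8 cells it ran from 8.24 CPM for Ly6a to 838 CPM for Ly6e, with a median of 136 CPM. Scaled by exon length, Ly6e, a membrane-anchored surface protein, was the highest member in both, at 105 and 221 CPM per kilobase. Ifi27 and Ifi47 came next in both, at 98.3 and 85.9 CPM per kilobase in control ImCD4 and 121 and 160.4 in control ImCD8. Mx1 and Rsad2 were the lowest members in both. The summed level of the 40 members was 3428.6 to 3643 CPM in control ImCD4, 3046 to 3545.6 CPM in dKO ImCD4, 5694 to 6014 CPM in control ImCD8 and 5763 to 6597 CPM in dKO ImCD8.

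**Figure D2:**
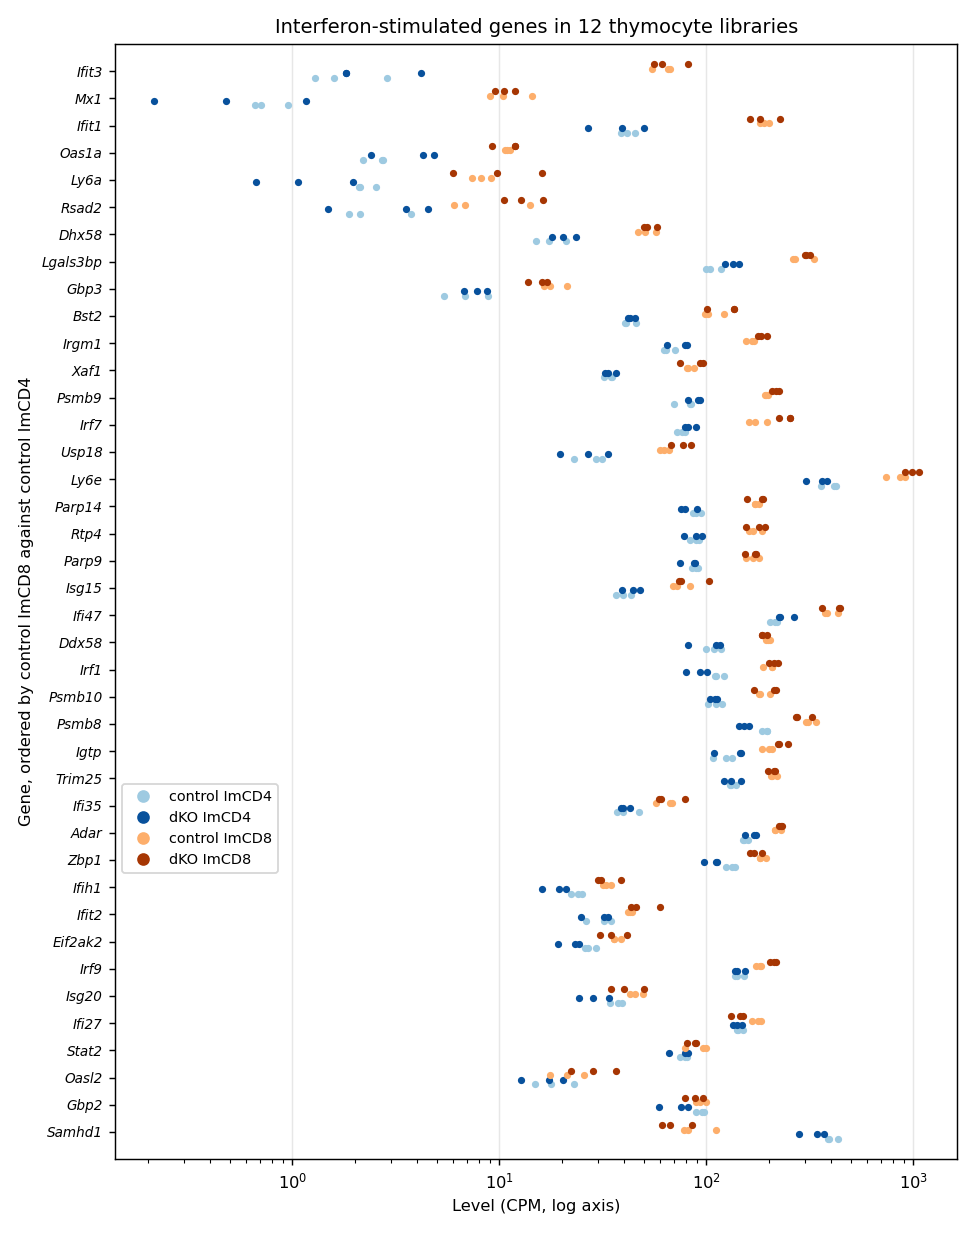
Level of each of the 40 members in each of the 12 libraries (points) on a log axis in CPM, with genes ordered by the log2 fold change of control ImCD8 against control ImCD4. ImCD8 points lie to the right of ImCD4 points for nearly every gene, Samhd1 is the exception at the bottom, and control and dKO points of a population mostly intermix.

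Loss of Zfp148 and Zfp281 was compared with control first in ImCD4 cells. Of the 40 members 1 rose, 4 fell and 35 did not pass an edgeR quasi-likelihood test at a Benjamini-Hochberg adjusted p under 0.05. That is 12.5% of the members, against 13.4% of all genes tested. Genes that rose were 7.26% and genes that fell 6.16% of all tested. The members' median log2 fold change was -0.03, against 0.02 over all genes, and 16 of 40 members were above 0 (52.5% of all genes). Without dKO replicate 3 the members' median was 0.05 with 25 above 0, and without replicate 3 of every group it was 0.02 with 22 above 0, so the direction of the median rests on that library.

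Irf1, a transcription factor that activates antiviral and antigen-presentation genes, stood at 112, 122 and 110.1 CPM in control and 93.0, 101 and 80.2 CPM in dKO ImCD4 libraries. Every dKO library was below every control library. The log2 fold change was -0.32 ± 0.09 (SE; edgeR adjusted p = 0.0196). Irf1 is the member shown above with a GAS match and no ISRE core match.

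Psmb8, a catalytic subunit of the immunoproteasome that cuts peptides for MHC class I, stood at 196, 197 and 185 CPM in control and 152, 161 and 144 CPM in dKO ImCD4 libraries. The groups did not overlap. Its log2 fold change was -0.34 ± 0.08 (edgeR adjusted p = 0.0107). Its partner subunits did not pass: Psmb9 gave 0.17 ± 0.08 and Psmb10 -0.03 ± 0.09.

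Gbp2, a guanylate-binding GTPase that acts on membranes of intracellular pathogens, stood at 95.5, 97.9 and 88.9 CPM in control and 81.6, 75.4 and 58.8 CPM in dKO ImCD4 libraries. All dKO libraries were lower, and replicate 3 was the lowest. Its log2 fold change was -0.38 ± 0.11 (edgeR adjusted p = 0.0244). Zbp1, a sensor of Z-form nucleic acid, stood at 125, 138 and 133 CPM in control and 111, 112 and 97.7 CPM in dKO libraries. Again the groups did not overlap, and the log2 fold change was -0.30 ± 0.08 (edgeR adjusted p = 0.0177).

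Lgals3bp, a secreted glycoprotein that binds galectin 3, was the 1 member that rose. It stood at 105, 118 and 100.3 CPM in control and 124, 143 and 134 CPM in dKO ImCD4 libraries. Every dKO library was above every control library, with a log2 fold change of 0.31 ± 0.09 (edgeR adjusted p = 0.0364). Psmb8 passed under all 14 alternatives, with an adjusted p of at most 0.0472, whereas the other 4 calls did not. Over all genes 1797 of 13383 passed, and 1055 to 1482 with each ImCD4 library left out in turn (1086 of 13674 without control replicate 1). The count of 5 members was 2 without control replicate 2 or without dKO replicate 3, 3 without control replicate 1 or control replicate 3, and 1 when replicate 3 of every group was left out. With those 4 libraries kept and a term for them in the model, 8 members passed (20%, against 20% of all genes): the same 5, and Ifih1, Isg20 and Eif2ak2 as lower. Irf1 lost its call without control replicate 2, dKO replicate 1 or dKO replicate 3, and Zbp1 without control replicate 2 or 3 or dKO replicate 3. Gbp2 lost it without control replicate 1 or 2 or dKO replicate 2 or 3, and Lgals3bp without control replicate 1 or 3 or dKO replicate 2 or 3. Over all alternatives the adjusted p reached 0.0910 for Irf1, 0.1075 for Zbp1, 0.0861 for Gbp2 and 0.157 for Lgals3bp.

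The remaining 35 members are bounded by their intervals. For 30 of them the 95% confidence interval lay within 2-fold of control in either direction, and for 25 within 1.5-fold. Ifit3, Mx1, Oas1a, Rsad2 and Ly6a had wider intervals, and these are the members of lowest level in ImCD4. Mx1, for example, stood at 0.707, 0.663 and 0.954 CPM in control and 1.16, 0.478 and 0.214 CPM in dKO libraries, with a log2 fold change of -0.27 ± 0.51 and an interval of -1.45 to 0.90. The canonical early-response genes showed overlapping groups: Isg15 stood at 39.8, 43.2 and 36.6 CPM in control and 48.0, 44.4 and 39.0 CPM in dKO, and the mean of Ifit1 was 41.7 ± 3.39 CPM in control and 38.7 ± 11.6 CPM in dKO (SD, n = 3).

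Groups did not overlap for 12 members in ImCD4, 3 of them higher and 9 lower in dKO, against 33.8% of all genes tested (18.1% higher, 15.7% lower). Beside Lgals3bp the higher ones were Irf7 and Ifi47, which did not pass. The 5 lower members that did not pass were Ifih1 (log2 fold change -0.33 ± 0.13), Isg20 (-0.36 ± 0.14), Samhd1 (-0.29 ± 0.14), Eif2ak2 (-0.30 ± 0.12) and Ly6a (-0.85 ± 0.45), all named for this pattern after their values were seen. Their adjusted p by edgeR was 0.101, 0.101, 0.211, 0.118 and 0.242. In ImCD4 dKO replicate 3 was the lowest of its group for 31 of the 40 members, and control replicate 3 of its group for 23. The median coefficient of variation was 11.6% in dKO ImCD4 against 6.95% in control ImCD4. ImCD4 groups also differed in reads outside genes, at 13.6% to 16.4% in control and 10.5% to 12.9% in dKO, and in mitochondrial counts, at 1.07% to 1.31% and 0.633% to 0.961%. Their part in the result was not tested.

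In ImCD8 cells 1 member rose, 1 fell and 38 did not pass in dKO against control. That is 5% of the members, against 6.14% of all genes tested (2.62% higher, 3.53% lower). The median log2 fold change was 0.05, against 0.01 over all genes, and 26 of 40 members were above 0 (51.4% of all genes). The members' median was 0.01 with 21 above 0 without dKO replicate 1, and 0.12 with 29 above 0 without dKO replicate 2.

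Irf7, a factor that amplifies the type I interferon response, was the member that rose in ImCD8. It stood at 172, 160.4 and 198 CPM in control and 254, 224 and 254 CPM in dKO ImCD8 libraries. The lowest dKO library was above the highest control library, and the log2 fold change was 0.46 ± 0.08 (edgeR adjusted p = 0.00269), which is 1.38-fold higher. It passed under all 14 alternatives, with an adjusted p of at most 0.0204. In ImCD4 it stood at 72.0, 76.4 and 79.0 CPM in control and 81.7, 89.0 and 79.0 CPM in dKO, with a log2 fold change of 0.14 ± 0.09 that did not pass.

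Ifi27, which encodes a small mitochondrial membrane protein, fell in ImCD8. It stood at 179, 185 and 167 CPM in control and 150.1, 131 and 146 CPM in dKO ImCD8 libraries, with no overlap. The log2 fold change was -0.31 ± 0.07 (edgeR adjusted p = 0.015). This call was lost without control replicate 1, control replicate 2 or dKO replicate 2, and its adjusted p was at most 0.0685 over the alternatives. Over all genes 822 of 13383 passed, 473 of 13688 without control replicate 1 and 1280 of 27982 without the filter on low counts. The count of 2 called members was 1 without control replicate 1 or control replicate 2, 4 when replicate 3 of every group was left out and 5 without the filter. With a term for those 4 libraries 5 members passed (12.5%, against 10.6% of all genes): Irf7, Irf9, Ly6e and Oasl2 as higher and Ifi27 as lower.

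The other regulators did not pass in either population. Irf9, the DNA-binding partner of Stat2, stood at 174, 182 and 183 CPM in control and 212, 204 and 216 CPM in dKO ImCD8 libraries. These groups did not overlap, but the log2 fold change of 0.23 ± 0.07 just missed the threshold (edgeR adjusted p = 0.0507). Irf9 passed there under 3 of 14 alternatives: RLE size factors, a filter of over 5 CPM in 3 libraries, and DESeq2 (adjusted p = 0.0173). It did not pass under the other 11, with an adjusted p of at most 0.184. With a term for the 4 libraries that stand apart it passed too (edgeR adjusted p = 0.0227). In ImCD4 Irf9 stood at 138, 151 and 140.4 CPM in control and 142, 153 and 137 CPM in dKO, which overlap.

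Stat2 stood at 80.9, 74.9 and 79.0 CPM in control ImCD4, 81.3, 78.9 and 66.1 CPM in dKO ImCD4, 96.1, 79.3 and 100.3 CPM in control ImCD8 and 88.3, 89.1 and 80.6 CPM in dKO ImCD8 libraries. Its groups overlapped in both populations. Usp18, which removes ISG15 from proteins and damps receptor signalling, stood at 31.3, 29.3 and 23.1 CPM in control and 33.4, 26.7 and 19.7 CPM in dKO ImCD4 libraries. In ImCD8 Usp18 stood at 62.2, 59.9 and 65.9 CPM in control and 84.5, 67.2 and 77.4 CPM in dKO, which do not overlap, with a log2 fold change of 0.28 ± 0.15 that did not pass (edgeR adjusted p = 0.341).

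For 36 of the 38 members that did not pass in ImCD8 the interval lay within 2-fold of control, the exceptions being Rsad2 and Ly6a, and for 31 within 1.5-fold. Groups did not overlap for 7 members, 6 higher and 1 lower in dKO, against 21.8% of all genes (10.3% higher, 11.5% lower). The higher ones were Irf7, Irf9, Usp18, Igtp, Irgm1 and Psmb9, and the lower one was Ifi27. Replicate 1 of dKO ImCD8 was the highest of its group for 22 of the 40 members and the lowest for none. Irf1 stood at 188, 207 and 208 CPM in control and 213, 201 and 222 CPM in dKO ImCD8 libraries, Psmb8 at 309.7, 338 and 304 CPM and 324, 270.4 and 273 CPM, and Gbp2 at 89.4, 99.3 and 93.2 CPM and 96.4, 79.1 and 88.1 CPM. All 3 overlapped between control and dKO in ImCD8.

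No member was called in both populations, 7 were called in 1 and 33 in neither, where 3.71% of all genes were called in both, 12.1% in 1 and 84.1% in neither. At those shares a set of this size holds few genes called in both, so nothing is read from the absence. The difference of the knockout effects, ImCD4 minus ImCD8, was tested in the same edgeR model. None of the 40 members passed, against 0.433% of all genes (0.254% higher, 0.179% lower). 6 members had an unadjusted p under 0.05, and DESeq2 and limma-voom also called 0. Without the filter on low counts 2 of the 40 members passed, against 233 of 27982 genes. With a term for the 4 libraries that stand apart 1 passed, Ly6e, with a difference of -0.43 ± 0.11 (edgeR adjusted p = 0.0441), against 1.49% of all genes. Of the 40 differences 13 were above 0, against 51.7% of all genes, but 21 were without dKO ImCD4 replicate 3 and 7 without dKO ImCD4 replicate 1, and the median went from -0.09 to 0.01 and -0.16. The difference was -0.40 ± 0.12 for Irf1 (adjusted p = 0.216), -0.33 ± 0.12 for Irf7 (adjusted p = 0.352) and 0.29 ± 0.10 for Ifi27 (adjusted p = 0.33) by edgeR. The 7 calls in ImCD4 or ImCD8 are thus not shown to differ between the populations in the main fit. Irf1, 1 of these 7, was among the 2 members whose difference passed without the filter on low counts (edgeR adjusted p = 0.0454). Its difference did not pass under the other 18 of 19 alternatives.

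**Figure D3:**
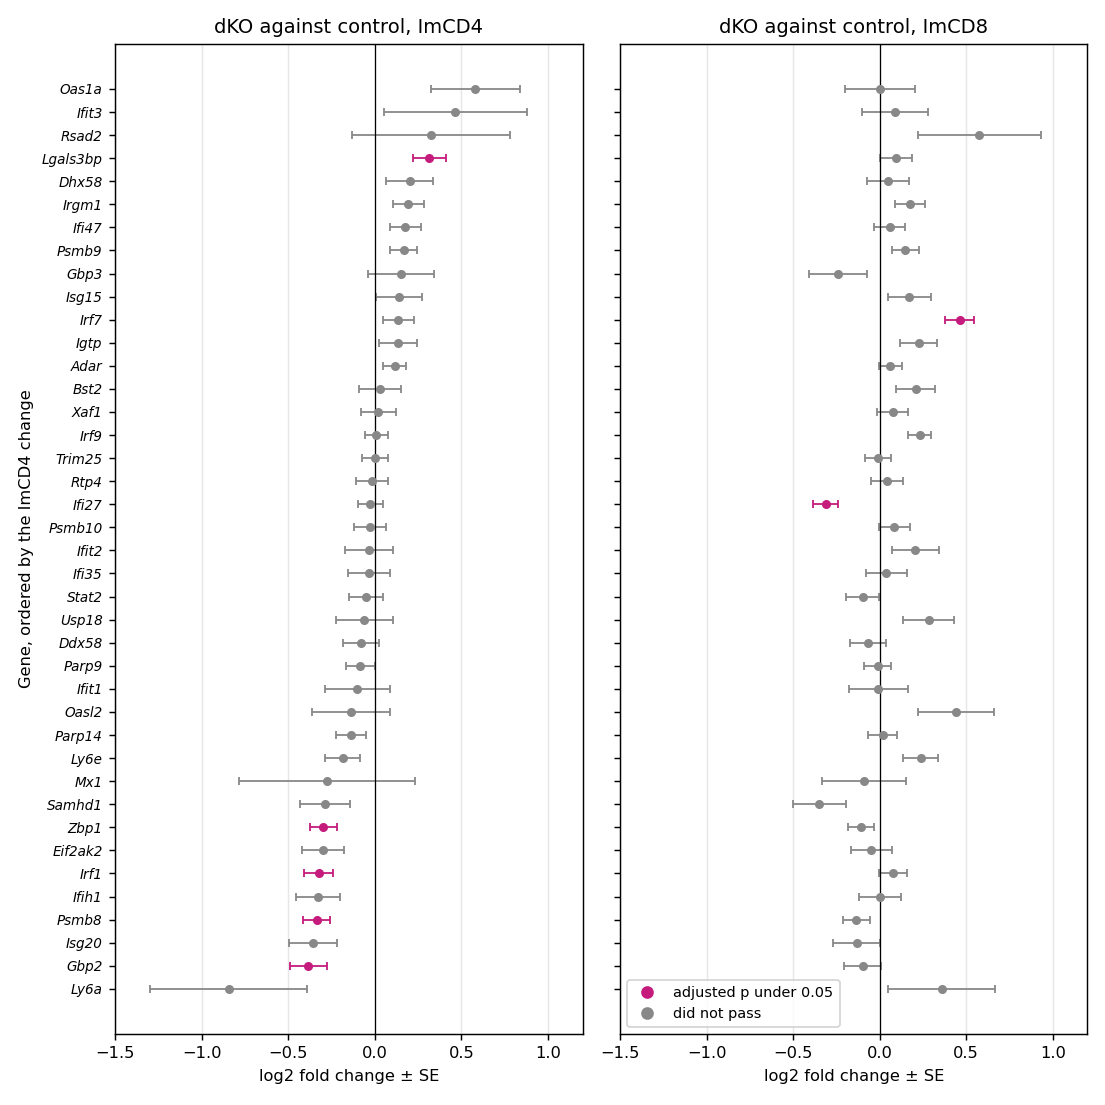
log2 fold change of dKO against control (points) with its standard error (bars) for the 40 members in ImCD4 (left) and ImCD8 (right), genes ordered by the ImCD4 value and members that passed drawn in pink. 5 members are pink on the left and 2 on the right, and most points lie within 0.5 of 0.

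Control ImCD8 cells were then compared with control ImCD4 cells. Of the 40 members 35 were higher in ImCD8, 1 was lower and 4 did not pass the edgeR test. Genes higher in ImCD8 were 23.1% and genes lower 22.1% of all genes tested (45.3% in either direction). The members' median log2 fold change was 0.90, against -0.01 over all genes, of which 49.3% were above 0. Groups did not overlap for 37 members, 36 higher and 1 lower, against 56.4% of all genes (28.8% higher, 27.6% lower).

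Restriction factors, which block steps of viral replication, held the largest differences: 9 of 12 were higher, 1 was lower and 2 did not pass. Ifit3, an adaptor of a complex that binds viral RNA, stood at 1.30, 2.87 and 1.59 CPM in control ImCD4 and 54.8, 66.6 and 65.3 CPM in control ImCD8 libraries. The log2 fold change was 5.0 ± 0.29 (edgeR adjusted p = 1.56e-08), a 32.1-fold difference. Reads that align to both Ifit3 and its near-identical neighbour Ifit3b were left out as multiply aligned, so both may be counted low. Ifit3b was higher too, with a log2 fold change of 4.20 ± 0.30.

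Mx1, a dynamin-like GTPase that blocks influenza and related viruses, stood at 0.707, 0.663 and 0.954 CPM in control ImCD4 and 10.4, 9.01 and 14.5 CPM in control ImCD8. Although rare in both, its groups were far apart, with a log2 fold change of 3.85 ± 0.34 (edgeR adjusted p = 1.73e-07). Ifit1, which binds the 5′ end of foreign RNA, stood at 41.2, 45.3 and 38.6 CPM and 182, 191 and 200.2 CPM, with a log2 fold change of 2.20 ± 0.18. Both Ifit3 and Ifit1 carry the paired ISRE core matches shown above.

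Oas1a, a member of the family that makes the activator of the antiviral ribonuclease L, stood at 2.71, 2.21 and 2.76 CPM in control ImCD4 and 10.9, 10.7 and 11.3 CPM in control ImCD8. Rsad2, which makes a chain-terminating nucleotide, stood at 1.88, 3.76 and 2.12 CPM and 6.05, 14.1 and 6.80 CPM. Their log2 fold changes were 2.09 ± 0.24 and 1.76 ± 0.42 (edgeR adjusted p = 2.82e-06 and 0.00385). Replicate 2 was the highest Rsad2 library in both populations, and Ifit2, Bst2, Adar and Eif2ak2 were higher in ImCD8 with log2 fold changes of 0.47 ± 0.14, 1.34 ± 0.12, 0.52 ± 0.07 and 0.43 ± 0.12. Ifit2 lost its call without control ImCD4 replicate 3 (adjusted p = 0.0579).

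Samhd1, a hydrolase that depletes the nucleotides used for DNA synthesis, was the 1 member that was lower in ImCD8. It lies on chromosome 2 from 157097533 to 157135265 (minus strand). It stood at 392, 388 and 433 CPM in control ImCD4 and 81.8, 78.2 and 111 CPM in control ImCD8 libraries. The log2 fold change was -2.16 ± 0.15 (edgeR adjusted p = 1.14e-07). Scaled by exon length, Samhd1 ranked 9 of 40 in control ImCD4 and 32 of 40 in control ImCD8, while Ifit3 ranked 38 and 19.

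Among the sensors all 4 were higher in control ImCD8. Dhx58, a relative of the RNA sensors Ddx58 and Ifih1 that tunes their signalling, stood at 15.1, 21.1 and 17.5 CPM in ImCD4 and 46.7, 57.3 and 50.7 CPM in ImCD8. Its log2 fold change was 1.52 ± 0.13, against 0.87 ± 0.11 for Ddx58 (RIG-I), 0.48 ± 0.12 for Ifih1 (MDA5) and 0.50 ± 0.08 for Zbp1. Of the regulators Irf7, Irf1 and Irf9 were higher, with log2 fold changes of 1.22 ± 0.09, 0.81 ± 0.08 and 0.33 ± 0.07, whereas Stat2 gave 0.23 ± 0.10 and did not pass (edgeR adjusted p = 0.0566). Both genes of the ISG15 system were higher: Isg15 by 0.91 ± 0.13 and Usp18 by 1.17 ± 0.16 on the log2 scale.

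All 3 immunoproteasome subunits were higher in control ImCD8, Psmb8 by 0.72 ± 0.08, Psmb9 by 1.30 ± 0.08 and Psmb10 by 0.76 ± 0.09 on the log2 scale. Psmb9 overlaps Tap1 on the opposite strand, and the sources used here do not give the strand setting of the counting. Of the GTPases Ifi47, Igtp, Irgm1 and Gbp3 were higher, with log2 fold changes of 0.90 ± 0.09, 0.70 ± 0.11, 1.33 ± 0.09 and 1.39 ± 0.18. Gbp2 stood at 95.5, 97.9 and 88.9 CPM in control ImCD4 and 89.4, 99.3 and 93.2 CPM in control ImCD8, and these ranges coincide. Igtp overlaps Irgm2, and Ifi47 overlaps Olfr56, on the same strand, so their counts are uncertain.

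The ubiquitin and ADP-ribose enzymes Trim25, Parp9 and Parp14 were all higher, by 0.65 ± 0.08, 0.92 ± 0.08 and 0.96 ± 0.08 on the log2 scale. Of the Ly6 proteins Ly6a, the surface antigen Sca-1, stood at 2.12, 2.10 and 2.54 CPM in control ImCD4 and 7.40, 8.17 and 9.14 CPM in control ImCD8. Its log2 fold change was 1.86 ± 0.36, and that of Ly6e was 1.07 ± 0.10. Lgals3bp, among the other 5 genes, stood at 105, 118 and 100.3 CPM and 262, 331 and 269 CPM, with a log2 fold change of 1.42 ± 0.09. Ifi27, Ifi35, Rtp4 and Xaf1 were higher as well, by 0.29 ± 0.07, 0.63 ± 0.12, 0.95 ± 0.09 and 1.30 ± 0.10 on the log2 scale.

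**Figure D4:**
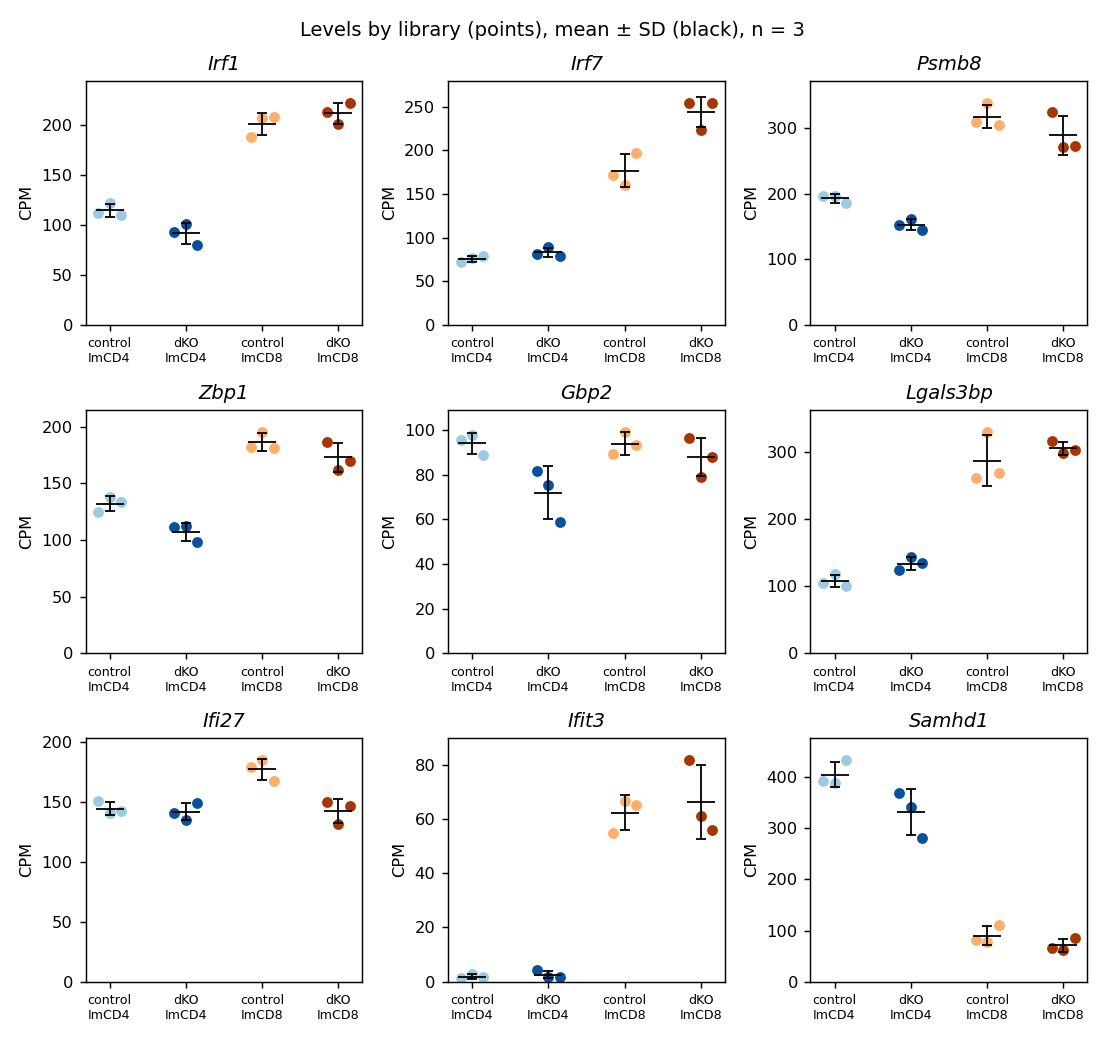
Levels in CPM of 9 members by group, with 1 point per library and black bars for the mean and SD (n = 3), on axes that start at 0. For Irf1, Irf7, Psmb8, Zbp1, Lgals3bp, Ifit3 and Samhd1 the step between ImCD4 and ImCD8 is wider than that between control and dKO, whereas for Gbp2 control ImCD4 and control ImCD8 lie at the same level.

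The comparison of the populations within dKO sets dKO libraries against each other. Its filter, scaling and estimate of spread come from all 12 libraries, and it shares dKO libraries with the knockout comparisons. Of the 40 members 37 were higher in dKO ImCD8 than in dKO ImCD4, 1 was lower (Samhd1) and 2 did not pass, against 22.1% higher and 21.6% lower among all genes (43.7% in either direction). Groups did not overlap for 37 members, 36 higher and 1 lower, against 51.8% of all genes (25.6% higher, 26.2% lower). The members' median log2 fold change was 0.97, and 49.9% of all genes were above 0. Ifit3 stood at 4.19, 1.82 and 1.82 CPM in dKO ImCD4 and 81.7, 61.0 and 56.1 CPM in dKO ImCD8 (4.63 ± 0.27 on the log2 scale), Mx1 at 1.16, 0.478 and 0.214 CPM and 10.5, 9.57 and 11.9 CPM (4.03 ± 0.34), and Samhd1 at 369, 342 and 281 CPM and 66.7, 61.4 and 85.5 CPM (-2.22 ± 0.15).

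In control and dKO alike 34 members were higher in ImCD8 and 1 was lower. Of all genes 23.1% were higher in the control comparison and 22.1% in the dKO comparison, and the share higher in both was not counted. Ifi27 was higher only in the control comparison, and Gbp2, Isg20 and Oasl2 passed as higher only in the dKO comparison, but for none of these 4 did the difference of the effects pass (edgeR adjusted p = 0.33, 0.548, 0.74 and 0.573). In dKO Gbp2 gave 0.28 ± 0.11 (edgeR adjusted p = 0.04), a call lost under 8 of 14 alternatives, among them those without dKO ImCD4 replicate 2 or 3 and without dKO ImCD8 replicate 1 or 3; the adjusted p was at most 0.228. Oasl2 lost its call without dKO ImCD8 replicate 1. Stat2 passed in neither comparison.

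**Figure D5:**
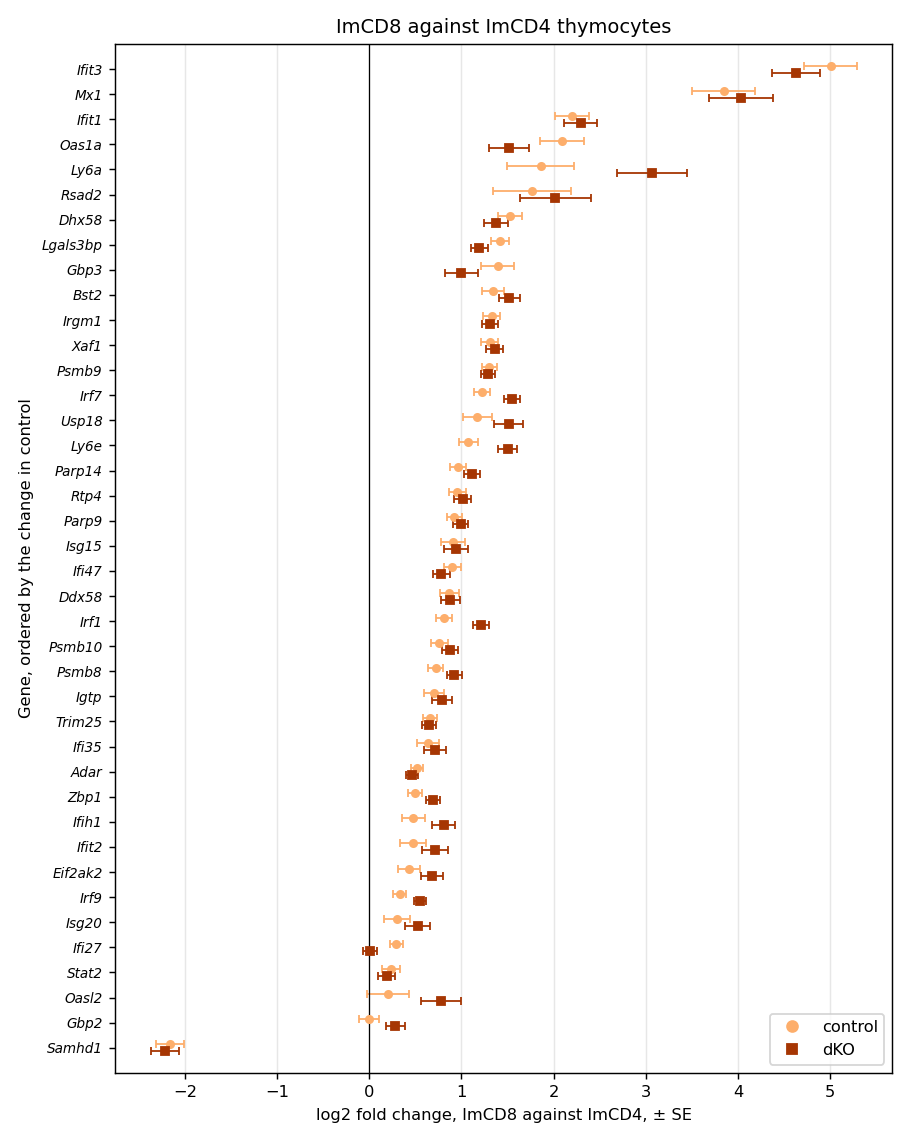
log2 fold change of ImCD8 against ImCD4 (points) with its standard error (bars) for the 40 members in control (circles) and dKO (squares). The values in control and dKO lie close together for most members, Ifit3 and Mx1 are highest, and Samhd1 alone lies far below 0.

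Members with an ISRE core match in their promoter window had a median log2 fold change of 1.12 between control ImCD8 and control ImCD4, and 12 of 14 were higher. Members with a window and no match had a median of 0.69, and 13 of 16 were higher and 1 lower. In dKO against control the medians with and without a match were 0.08 and -0.01 in ImCD4 and 0.00 and 0.08 in ImCD8. These are descriptions of small sets of genes, and no test was made between them.

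The rest of the pathway was read from fixed lists. Over all genes tested 13.4% passed in dKO against control in ImCD4 and 6.14% in ImCD8. Of 12 interferon genes (Ifnb1, Ifna and Ifnl genes, Ifng, Ifne and Ifnk) 10 had no count in any library, which allows up to 0.0270 CPM over all 12 libraries (3 counts, counting error only). Ifng and Ifnk had a few counts and did not pass the filter. Of the receptors and their Jak-Stat relay none of 10 tested genes passed in dKO against control in either population, with 0 and 2 at an unadjusted p under 0.05 in ImCD4 and ImCD8 by edgeR. DESeq2 called 0 and 1 of them, and limma-voom 0 and 0. In control ImCD8 against control ImCD4, 7 of the 10 were higher and 2 lower, against 23.1% and 22.1% of all genes. Among the higher ones were Ifnar2 by 0.86 ± 0.10 and Il10rb by 1.81 ± 0.16 on the log2 scale. Ifngr2 gave -0.30 ± 0.07 and Jak2 -0.25 ± 0.07.

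Among the Irf factors outside the 40 members Irf8, a factor of myeloid and dendritic cells, rose with the knockout in both populations. It stood at 5.30, 4.31 and 4.03 CPM in control ImCD4 and 7.23, 7.18 and 6.20 CPM in dKO ImCD4. In ImCD8 its level was 12.6, 13.0 and 12.4 CPM in control and 20.3, 19.2 and 17.2 CPM in dKO. The groups did not overlap in either population, with log2 fold changes of 0.60 ± 0.16 and 0.58 ± 0.14 (edgeR adjusted p = 0.0223 and 0.0173). Irf8 lost its call in ImCD4 under 7 of 14 alternatives (adjusted p at most 0.0910), among them those without control replicate 2 or 3 or dKO replicate 1 or 2, and in ImCD8 without control replicate 1 or 3 or dKO replicate 1. Irf2, Irf3, Irf4 and Irf5 did not pass in either population.

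Of 8 feedback inhibitors Socs1, which blocks Jak kinases, rose in dKO ImCD4 from 305, 272 and 343 CPM to 404, 504 and 634 CPM (log2 fold change 0.74 ± 0.16, edgeR adjusted p = 0.011). Socs3 fell from 2.47, 1.33 and 1.38 CPM to 0.624, 0.287 and 0.321 CPM. In ImCD8 neither passed, and Pias2 fell by 0.34 ± 0.08 on the log2 scale, and this call did not hold when control replicate 1 or 2, or dKO replicate 1 or 3, was left out. Of 11 sensors and adaptors tested Mavs and Myd88 rose and Tlr7 fell in dKO ImCD4 (27.3%, against 13.4% of all genes). Their log2 fold changes were 0.42 ± 0.10, 0.38 ± 0.08 and -0.75 ± 0.14, and Mavs lost its call without control replicate 1 or dKO replicate 2. None passed in ImCD8, where 2 had an unadjusted p under 0.05 by edgeR and DESeq2 and limma-voom called 0.

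Of 48 other interferon-stimulated genes 43 were tested, and 5 passed in dKO ImCD4 and 4 in dKO ImCD8. That is 11.6% and 9.30% of them, against 13.4% and 6.14% of all genes tested. DESeq2 called 7 and 5, and limma-voom 8 and 3. In dKO ImCD4 Oasl1 and Tor3a rose and Mx2, Parp12 and Herc6 fell. Parp12 lost its call without control replicate 2 or dKO replicate 3, and Herc6 without any library but control replicate 3. Oasl1 stood at 6.36, 6.63 and 5.83 CPM in control and 14.2, 11.9 and 11.7 CPM in dKO, and Mx2 at 9.30, 9.61 and 9.11 CPM and 4.55, 4.31 and 2.99 CPM, with log2 fold changes of 1.01 ± 0.14 and -1.23 ± 0.18 (edgeR adjusted p = 0.000156 and 0.000223). In dKO ImCD8 Oasl1 and Ifi27l2a rose by 0.68 ± 0.12 and 0.47 ± 0.12, and Sp100 fell by 0.26 ± 0.07 on the log2 scale. Ifi44 rose from 5.15, 4.37 and 4.36 CPM to 13.0, 10.9 and 7.73 CPM. Ifi27l2a lost its call without any one library but dKO replicate 2, and Sp100 without any one library.

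Of all genes tested 23.1% were higher and 22.1% lower in control ImCD8 than in control ImCD4. Among these 43 genes 29 were higher, 4 were lower and 10 did not pass. Those with the smallest p were Ifit1bl1, Shisa5, Gbp6 and Cmpk2. Their log2 fold changes were 4.26 ± 0.22, 1.40 ± 0.07, 2.10 ± 0.13 and 2.94 ± 0.20.

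Genes of thymocyte maturation differed between the populations beside the members. H2-K1, which encodes the H2-Kb molecule used to gate ImCD4 alone, stood at 258, 252 and 249 CPM in control ImCD4 and 2641, 2616 and 3019 CPM in control ImCD8. Its log2 fold change was 3.45 ± 0.09, and those of the egress receptor S1pr1 and its activator Klf2 were 6.63 ± 0.46 and 3.85 ± 0.14. Of 13 maturation genes 7 were higher in control ImCD8 and 4 lower, against 23.1% and 22.1% of all genes. Ccr9, Cd69, Il7r and Cd24a were the lower ones. In dKO against control Klf2, H2-D1 and B2m rose and Ccr7 and Il7r fell in ImCD4 (38.5%, against 13.4% of all genes). Their log2 fold changes were 0.92 ± 0.14, 0.48 ± 0.07, 0.46 ± 0.08, -1.08 ± 0.11 and -0.37 ± 0.11. In ImCD8 B2m alone passed (0.29 ± 0.08), which is 7.69% of the list against 6.14% of all genes. The calls of Il7r and of B2m in ImCD8 were lost under 5 and 7 of 14 alternatives. The part of stage or gate in the members' difference was not tested.

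Markers of other cell types were read in the same libraries. Of the 8 markers of plasmacytoid dendritic cells, which make type I interferon, Klk1 had no count in any library and Siglech at most 1 count in a group. The list summed to 1734.5 to 2057 CPM in control ImCD4, 1673 to 1884 CPM in dKO ImCD4, 917 to 1016 CPM in control ImCD8 and 958 to 1058 CPM in dKO ImCD8, and most of it was Ccr9, which thymocytes express. It also holds Bst2, a member of the 40, and Irf8, which rose with the knockout in both populations as given above. Of its 5 tested markers 3 were higher and 2 lower in control ImCD8 than in control ImCD4, and the counts were the same in dKO. Over all genes 23.1% were higher and 22.1% lower in control, and 22.1% and 21.6% in dKO. Of 6 B cell markers Ms4a1 and Pax5 had at most 1 count in a group, while Ighm averaged 78.7 ± 10.8 CPM in control ImCD4 and 335 ± 46.6 CPM in control ImCD8 (mean ± SD, n = 3). The B cell list summed to 71.4 to 94.7 CPM, 63.8 to 90.3 CPM, 309.2 to 401 CPM and 365 to 497 CPM in the same order of groups. Of its 3 tested markers 2 were higher in ImCD8 than in ImCD4 in control, and 2 in dKO. In dKO against control 1 of the 3 rose in ImCD8 (2.62% of all genes rose) and 0 passed in ImCD4.

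The 8 myeloid and conventional dendritic markers summed to 106 to 123 CPM in control ImCD4, 139.7 to 149.5 CPM in dKO ImCD4, 118 to 137 CPM in control ImCD8 and 121 to 171 CPM in dKO ImCD8, and Itgax and Csf1r had 2 and 3 counts in control ImCD4. The 6 markers of gamma-delta and innate-like T cells moved with both the knockout and the population: they summed to 65.3 to 75.4 CPM in control ImCD4, 269 to 372 CPM in dKO ImCD4, 1088 to 1262 CPM in control ImCD8 and 774 to 1057 CPM in dKO ImCD8. Of the 5 tested markers 3 rose in dKO ImCD4 (60%, against 7.26% of all genes), and 0 passed in dKO ImCD8 (6.14% of all genes). In the difference of the effects 1 of the 5 passed (0.433% of all genes). Sox13 made up most of the rise in dKO ImCD4, with means of 20.3 and 218 CPM, and Nkg7 and Il2rb most of the level in ImCD8. Zbtb16, which marks innate-like T cells, had 5, 3, 1 and 1 counts in the 4 groups.

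The 7 double-positive thymocyte markers, which include Cd4 and Cd8a, summed to 1182 to 1197 CPM in control ImCD4 and 1453 to 1485 CPM in dKO ImCD4, and to 1614 to 1677 CPM in control ImCD8 and 1646 to 1940.2 CPM in dKO ImCD8. Thymic epithelial markers summed to at most 22.1 CPM and erythroid markers to at most 16.9 CPM in any library. The part of these cells in the members' levels was not tested.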

How the data were processed

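RNA was isolated with the RNeasy Plus Micro kit and libraries were made with a SMARTer low-input mRNA kit, per the labels' protocols. The authors deposited unnormalized read counts for each gene symbol, and the submitters' processing notes name cutadapt 1.18, STAR 2.6.1 and HTSeq with mm10. No source used here gives the annotation or the strand setting. In GENCODE 17 of the 40 members overlap another gene, 5 of them on the same strand.

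Reads outside genes (10.5% to 16.4%), ambiguous reads (5.37% to 5.82%) and multiply aligned reads (3.87% to 5.39%) were left out of the library totals, as were the other 2 of the 5 summary lines. The analysis used edgeR 4.0.16 in R 4.3.3, with filterByExpr at a minimum count of 10 and minimum total of 15 and TMM factors of 0.946 to 1.04. All 12 libraries entered 1 robust quasi-likelihood model of 4 group means with 8 residual degrees of freedom. The 5 contrasts were tested two-sided with Benjamini-Hochberg adjustment over all 13383 genes at 0.05, and adjusted p-values come from this test. Intervals are 95% with 8 degrees of freedom. An exact permutation test of 3 against 3 cannot go below p = 0.1. CPM per kilobase uses GENCODE exon lengths.

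Every member that passed in a dKO contrast, the regulators with Usp18, and the 8 largest rises and the fall between control populations were given library by library. Genes of the other lists were named by smallest p. The members and lists were chosen with earlier results of these data known. Other fits replaced TMM by RLE size factors or by library size alone, used DESeq2 1.42.0 or limma-voom (limma 3.58.1), dropped the filter or required over 5 CPM in 3 libraries, kept only the groups compared, or left out replicate 3 of every group or each library in turn. A fit with a term for replicate 3 of every group, which stood apart on the third principal component, was added after seeing the data. Scripts were tested on simulated data. Some items of the lists are not reported here.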

Additional observations from a re-analysis of the deposited data

Results flagged for a closer look

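3 genes outside the 40 members, all on the lists of the wider pathway or of maturation, stood out in how their knockout effect differed between the 2 populations. The lists of cell type markers were not searched for such genes. Of the 5 tested gamma-delta and innate-like T cell markers 1 also passed in the difference of the effects, as higher (0.254% of all genes). Socs3, a cytokine feedback inhibitor, stood at 2.47, 1.33 and 1.38 CPM in control and 0.624, 0.287 and 0.321 CPM in dKO ImCD4, and at 43.3, 35.5 and 43.8 CPM in control and 55.5, 46.7 and 69.9 CPM in dKO ImCD8. Every dKO library was below every control library in ImCD4 and above in ImCD8, and the difference of the effects, ImCD4 minus ImCD8, was -2.48 ± 0.49 on the log2 scale (SE; edgeR adjusted p = 0.0308). For Socs3 this call was lost with limma-voom and without control replicate 1 or dKO replicate 2 or 3 of ImCD4, or control replicate 1 or dKO replicate 1 of ImCD8, with an adjusted p of at most 0.135. The chemokine receptor Ccr7 had a difference of -0.85 ± 0.15 (edgeR adjusted p = 0.0172). Ccr7 stood at 547, 545 and 731 CPM in control and 278, 269 and 317 CPM in dKO ImCD4 libraries, against 821, 937 and 967 CPM and 755, 761 and 813 CPM in ImCD8. Its call was lost without dKO ImCD4 replicate 1 or 2 or control ImCD8 replicate 1, with an adjusted p of at most 0.0639.

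Jak1, a kinase bound to interferon receptors, differed without overlap in both populations, with dKO libraries above control in ImCD4 and below control in ImCD8. It stood at 1129, 1159 and 1146 CPM in control and 1159.6, 1285 and 1250.1 CPM in dKO ImCD4, and at 1598, 1626 and 1612 CPM and 1425, 1412 and 1407 CPM in ImCD8. The difference of the effects was 0.29 on the log2 scale and did not pass (edgeR adjusted p = 0.207).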

How the results depend on the processing

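The count of members called in dKO ImCD4 was 5, and 1 without replicate 3 of every group, the libraries that stand apart. With a term for these 4 libraries in the model, chosen after seeing the data, it was 8. With each library left out in turn it was 2 to 5, the lowest without control replicate 2 or dKO replicate 3. In dKO ImCD8 the count was 2, then 5 without the filter, 4 without those 4 libraries, 5 with the term and 1 to 2 with each library left out. The difference of the effects called 0 members, 2 without the filter, 1 with the term and 0 with any library left out. The count between control populations was 36 (35 to 37 with each library left out) and between dKO populations 38 (36 to 38). In the control lineage comparison 503 of 504 values for single members kept their direction and their side of the threshold, and in the dKO lineage comparison 523 of 532.

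Of the called members and the regulators, whose values were followed one by one, Irf9, Stat2 and Usp18 changed sign. In dKO ImCD4 Irf9 was 0.01, and -0.0161 with library size alone, -0.0172 over 5 CPM, -0.0041 with only the groups compared, and -0.0171, -0.0024 and -0.0354 without control replicate 1, control replicate 3 and dKO replicate 2, and at most 0.0546 with each library left out. Stat2 there was 0.0406 without the 4 libraries and -0.1059 to 0.0357 with each library left out, and Usp18 was -0.2568 to 0.1126, the positive values coming without control replicate 1 (0.0306) and dKO replicate 3. In dKO ImCD8 Stat2 was 0.0119 without the 4 libraries. The difference for Stat2 was -0.0186 to 0.1412 with each library left out, negative without control ImCD8 replicate 3 and without dKO ImCD4 replicate 1 (-0.0085). The cause was not tested.

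Over all genes, 1797 were called in dKO ImCD4, falling to 1086 when control replicate 1 was left out and to 1055 when dKO replicate 2 was. In dKO ImCD8 822 were called, 1280 without the filter, 1420 with the term and 473 without control replicate 1. For the difference 58 were called, 140 with DESeq2, 233 without the filter, 200 with the term and 106 without the 4 libraries. No paired analysis was possible because the labels carry no replicate numbers and the numbers used here follow the order of the records; the term above marks the 4 libraries by their place on the third component, not as pairs. The intervals of Mx1, Ifit3, Oas1a, Rsad2 and Ly6a in dKO ImCD4 reach beyond 2-fold.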
